A study of Mus musculus with 4 samples.

Results

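Transcripts that mark macrophages and other myeloid cells were examined in cultured mouse primary myoblasts with and without the DNA dioxygenase Tet2. The set was a fixed list of 40 genes, matched by symbol to the deposited table, which held 24445 genes. All 40 were found. The list was not chosen by a threshold on any value, but its members were chosen with earlier results of these data known. The comparison was between 2 groups of C57BL/6 mice, each with 2 libraries: WT, and Tet2 KO, in which exon 3 of Tet2 had been deleted in the whole animal, so that any blood cell of a Tet2 KO mouse carried the deletion too. Per the study's methods, male mice of 8 to 10 weeks were used unless stated otherwise. In both groups satellite cells of the hindlimb were sorted for surface CD34 and integrin alpha 7 and against CD45, CD11b, CD31 and Sca1. They were then cultured on collagen for at least 3 days, in a medium that the labels name T cell medium, until they were MyoD+ myoblasts. The labels named no batch and did not say whether animals were pooled.

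Macrophages are phagocytes that derive from embryonic precursors or from blood monocytes, and they are known in muscle for clearing debris after injury and for signalling to satellite cells. Their transcripts include lysozyme, adaptors of activating receptors, actin regulators of blood cells, scavenger receptors and receptors for complement, formyl peptides and endotoxin. Many of these genes are shared with neutrophils and monocytes, whereas a smaller number separate resident, classically activated and alternatively activated macrophages.

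Expression was available as 1 pooled FPKM value for each gene and group, where FPKM scales a fragment count to a transcript length of 1000 bases and to 1000000 mapped fragments. There was thus no value for single libraries and no standard deviation over replicates. No test of a difference was made here, and test results in the same table were not used. A gene is described below as at least 2-fold higher or lower by the plain ratio of its pooled values, and log2 ratios are given as Tet2 KO over WT. Low FPKM values multiplied by transcript length fell at multiples of about 0.0225 in Tet2 KO and 0.0223 in WT, which was taken as the worth of 1 fragment. The counting error beside a log2 ratio is an approximation from that step. It covers counting only and not the spread between animals or cultures. Across the 11687 genes that averaged 1 FPKM or more and had both values above 0, the median log2 ratio was -0.0048. Tet2 itself had 5.79 FPKM in Tet2 KO against 6.64 in WT over all of its exons, a value that does not show the deleted exon apart. Myoblast markers were abundant in both groups, with Des at 372 FPKM in Tet2 KO against 449 in WT, Myod1 at 313 and 336 FPKM and Itga7 at 190 and 199 FPKM. The 8 myoblast markers had a median log2 ratio of -0.10.

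Of the 40 genes, 37 had a higher value in Tet2 KO and 3 had a lower value. At least 2-fold higher values were found for 34 of the 40, where 7.1% of all genes with both values above 0 reached that ratio. None was at least 2-fold lower, where 6.16% of all such genes were. Because the members were chosen with earlier results of these data known, these shares and those below are a description only. The median log2 ratio of the 40 was 1.94. A mean FPKM of at least 1 was reached by 30 genes, of which 26 were at least 2-fold higher and 0 at least 2-fold lower, against 2.92% and 1.92% of all genes at that level, with a median log2 ratio of 1.92 or 3.79-fold. Of these 30, 6 reached that mean through their Tet2 KO value alone, having under 1 FPKM in WT, and so had to differ. With at least 1 FPKM required in both groups, 20 of 24 genes were at least 2-fold higher, where 1.89% of all such genes were higher and 1.5% lower by that factor. In bulk RNA, a change in the number of cells of a type and a change in RNA per cell cannot be told apart. The 2 group values of each gene are plotted in the scatter of Tet2 KO against WT FPKM, where most of the genes follow a line parallel to that of equal values.

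**Figure D1:**
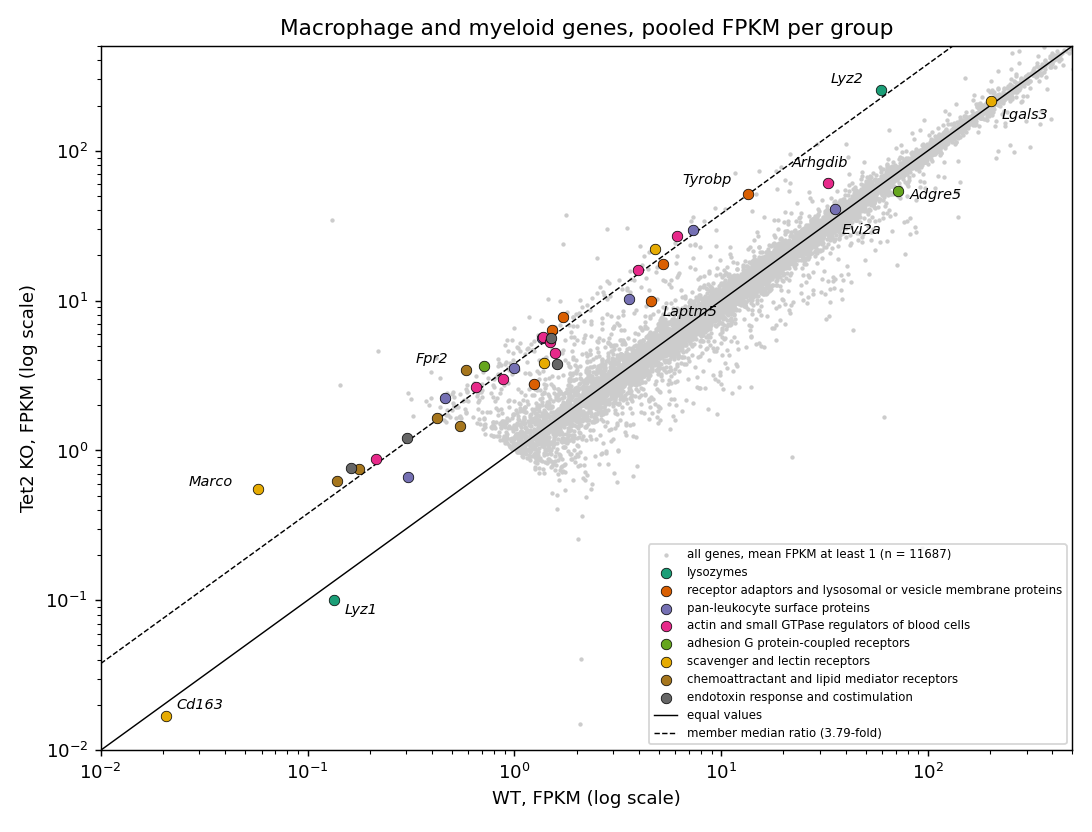
Pooled FPKM in WT (x axis) and in Tet2 KO (y axis), both on log scales, for the 40 macrophage and myeloid genes (coloured by role) and for the 11687 genes that averaged 1 FPKM or more and had both values above 0 (grey). The solid line marks equal values and the dashed line the 3.79-fold median of the 30 genes that averaged 1 FPKM or more. Lgals3 and Evi2a lie near the solid line and just above it, and Adgre5, Lyz1 and Cd163 lie a little below it.

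The question whether the genes moved by a shared factor was put to the spread of their ratios. A single factor would give equal ratios at every level of expression. Within 0.5 log2 units of 1.92, that is between 2.68-fold and 5.36-fold, lay 27 of the 40 genes, where 3.52% of all genes with both values above 0 lay in that band. Among the 30 genes with the higher mean, 22 lay in it, against 1.87% of all genes at that level. The 27 genes in the band spanned WT levels from 0.139 FPKM for Fpr1 to 59.5 FPKM for Lyz2, a range of 428-fold, and their log2 ratios had a median of 2.02 and a standard deviation across genes of 0.23. That standard deviation is narrow by construction, since the band chose the genes. Over all 40 genes, which come from the same libraries and are not independent, the Spearman correlation of the log2 ratio with the WT level was -0.24. Summed over the 40 genes, the level was 884 FPKM in Tet2 KO against 471 in WT, a ratio of 1.88, to which the abundant Lgals3, Adgre5, Evi2a and Arhgdib contributed with ratios under 2. The other 13 genes lay outside the band, 11 below it and 2 above it, and each of them was farther than 1.96 counting errors from 1.92. Of the 27 inside, 8 were also farther away than that: Lyz2, Coro1a, Adgre1 and Msr1 above, and Mpeg1, Cd53, Aif1 and Mrc1 below. In all, 21 of the 40 genes lay farther than 1.96 of these approximate counting errors from the median. Lyz1, Cd163 and Marco are among them with only about 8, 4 and 5 fragments in WT, where the approximation is least reliable. Over all 40 genes the standard deviation of the log2 ratios was 0.82, and over the 17961 genes with both values above 0 it was 0.78.

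The spread differed with the level. The 18 genes between 1 and 10 FPKM in WT ran from 1.11 to 2.21 on the log2 scale, with a median of 1.88, a standard deviation of 0.36 and an interquartile range of 0.55. The 4676 genes of the table at that level had a median of -0.02, a standard deviation of 0.57 and an interquartile range of 0.34, so that the members were narrower by one measure of spread and wider by the other. Of the 6 genes with at least 10 FPKM in WT, only Lyz2 and Tyrobp were at least 2-fold higher. Arhgdib reached 1.86-fold, and Evi2a, Lgals3 and Adgre5 were closer to equal. The standard deviation of these 6 was 1.03, wider than the 0.30 of the 6902 genes of the table at that level.

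**Figure D2:**
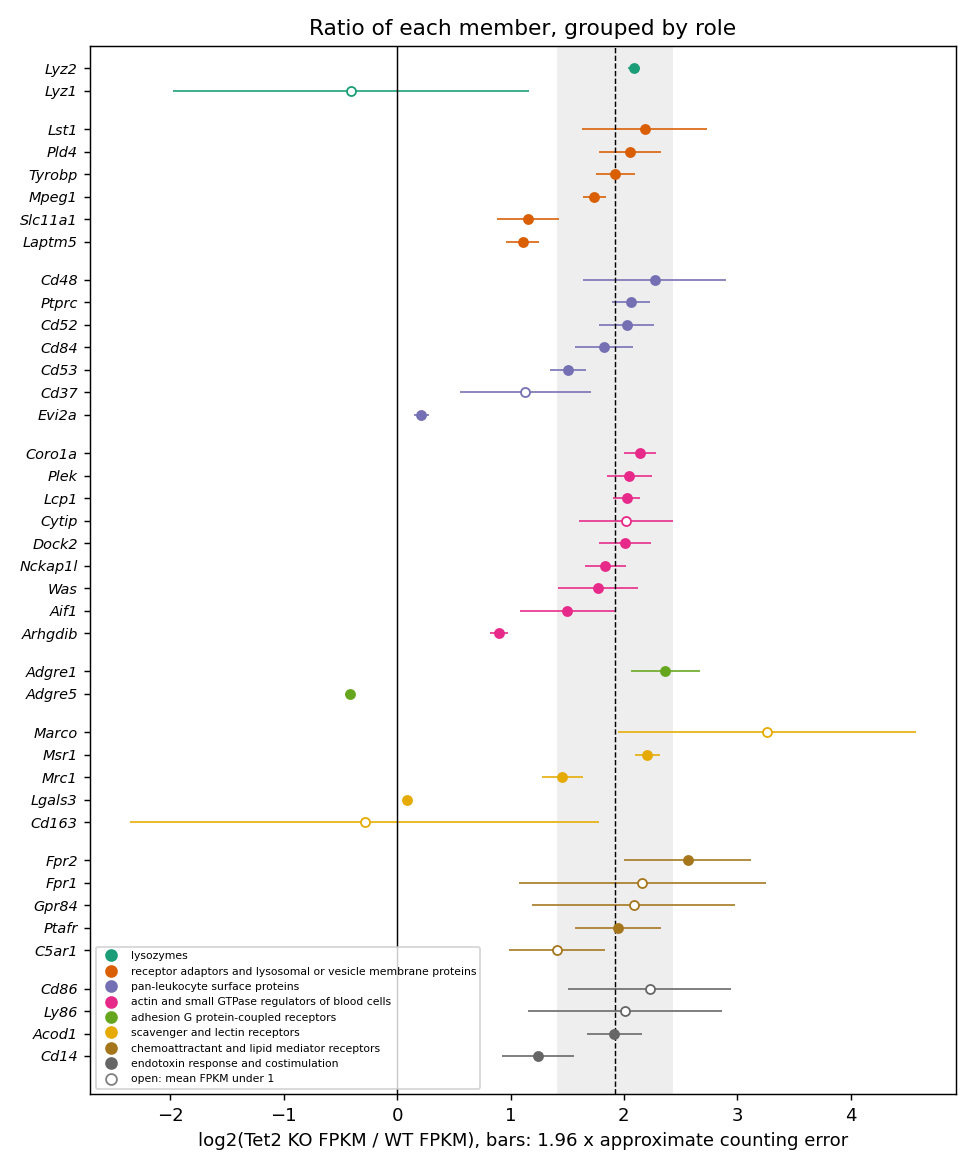
Log2 ratio of Tet2 KO over WT FPKM (x axis) for each of the 40 genes, grouped by role; bars extend to 1.96 times the approximate counting error, open points have a mean FPKM under 1, the dashed line marks 1.92 and the grey band 0.5 log2 units to either side of it. In the group of actin and small GTPase regulators 8 of 9 genes lie within the band, and Adgre5, Lgals3 and Evi2a lie far to its left with bars about as wide as their points.

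Lysozyme, which cleaves bacterial cell walls, is encoded in the mouse by a pair of neighbouring genes on chromosome 10. Lyz2, the form of macrophages and other myeloid cells, spans 116714597 to 116719328 on the minus strand of mm9 with 4 exons. Lyz1, the form best known from Paneth cells of the gut, spans 116724851 to 116729924 on the same strand, also with 4 exons. Lyz2 was the most abundant of the 40 genes in Tet2 KO, with 253 FPKM against 59.5 FPKM in WT, and its log2 ratio was 2.09 (counting error 0.027). Lyz1 had 0.101 FPKM in Tet2 KO against 0.134 in WT, about 6 and 8 fragments. The transcripts of the pair are alike: over 444 coding bases they differ at 22 positions, an identity of 95.05%, and the longest stretch without a difference is 118 bases. The coding parts of their first coding exons are shown because 14 of the 22 differences fall in them, and because reads that cover these bases assign a fragment to one gene or the other. The sequences are those of the mm9 genome, at chr10:116719163-116719298 for Lyz2 and chr10:116729759-116729894 for Lyz1, written along the minus strand, with capitals at the positions that differ.
Lyz2: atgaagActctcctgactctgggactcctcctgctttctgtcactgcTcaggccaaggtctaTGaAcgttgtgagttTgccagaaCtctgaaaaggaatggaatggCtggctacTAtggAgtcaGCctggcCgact
Lyz1: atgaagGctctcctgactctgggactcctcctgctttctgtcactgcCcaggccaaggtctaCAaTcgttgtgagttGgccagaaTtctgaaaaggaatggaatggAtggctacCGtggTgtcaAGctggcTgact

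Among the receptor adaptors and lysosomal or vesicle membrane proteins, all 6 genes were at least 2-fold higher in Tet2 KO. The share among all genes with both values above 0 was 7.1%. Tyrobp, the adaptor DAP12 that carries the signal of activating myeloid receptors, had 51.1 FPKM in Tet2 KO against 13.4 in WT, a log2 ratio of 1.93 (counting error 0.088). Mpeg1, which encodes the pore-forming protein perforin-2 of phagocytes, had 17.5 and 5.23 FPKM. Lst1, a small leukocyte membrane protein, had 7.77 and 1.71 FPKM, and Pld4, a nuclease of endolysosomes, had 6.32 and 1.52 FPKM. These 4 genes lay between 3.34-fold and 4.54-fold. The other 2 genes were lower in ratio. Laptm5, a lysosomal membrane protein of blood cells, had 9.90 FPKM in Tet2 KO against 4.60 in WT, a log2 ratio of 1.11 (counting error 0.076). Slc11a1, a metal ion transporter of the phagosome, had 2.76 and 1.24 FPKM, a log2 ratio of 1.16 (counting error 0.14).

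Pan-leukocyte surface proteins were represented by 7 genes, and 6 of them were at least 2-fold higher. By comparison, 7.1% of all genes with both values above 0 reached that ratio. Ptprc encodes CD45, the antigen against which the cells had been sorted. It had 5.67 FPKM in Tet2 KO against 1.36 in WT, a log2 ratio of 2.06 (counting error 0.085). The other leukocyte antigen of the gate, CD11b, is encoded by Itgam, which had 10.1 FPKM in Tet2 KO against 2.09 in WT. Transcripts of both gated antigens were thus present in both groups. Of the other gated antigens, Sca1 is encoded by Ly6a, which had 288 and 278 FPKM, and CD31 by Pecam1, which had 1.48 and 1.63 FPKM. Cd34, selected for in the gate, had 6.74 and 3.03 FPKM. Cd52, which encodes a small glycosylated antigen, had 29.6 and 7.28 FPKM, and Cd48, an adhesion ligand, had 2.23 and 0.461 FPKM, the largest ratio among these surface proteins at 4.83-fold. Cd84, a homophilic receptor of the SLAM family, had 3.54 and 1.00 FPKM. The tetraspanin genes were lower in ratio: Cd53 had 10.2 and 3.59 FPKM, or 2.84-fold, and Cd37 had 0.667 and 0.305 FPKM, or 2.19-fold.

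Evi2a stood apart from the other surface proteins. It had 41.0 FPKM in Tet2 KO against 35.4 in WT, a log2 ratio of 0.21 (counting error 0.033). It lies within the Nf1 gene on chromosome 11. Its locus, from 79153394 to 79395111 of mm9, is shared with Nf1, Evi2b, Omg, Evi2 and AU040972. Nf1 had 16.7 and 15.6 FPKM, and Evi2b, the neighbour of Evi2a, had 1.43 and 0.860 FPKM. Whether fragments of Nf1 or of another gene of the locus entered the value of Evi2a was not tested.

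The actin and small GTPase regulators of blood cells had the lowest standard deviation of log2 ratios among the 8 roles, 0.39. At least 2-fold higher were 8 of 9 genes, against 7.1% of all genes with both values above 0, and the median was 2.01. Lcp1, the actin bundling protein L-plastin, had 16.1 FPKM in Tet2 KO against 3.94 in WT, a log2 ratio of 2.02 (counting error 0.062). Coro1a, an actin-binding coronin, had 27.0 and 6.12 FPKM. Plek, the protein kinase C substrate pleckstrin, had 5.71 and 1.38 FPKM. Dock2, an activator of Rac in migrating leukocytes, had 2.64 and 0.654 FPKM, and Cytip, a binding partner of cytohesins, had 0.872 and 0.215 FPKM. These 5 genes, grouped here by their like ratios, lay between 4.03-fold and 4.41-fold, with Tet2 KO levels from 0.872 to 27.0 FPKM. The others of the role, given next, were lower in ratio. Nckap1l, a subunit of the actin-regulating WAVE complex in blood cells, had 5.33 and 1.49 FPKM. Was, which activates branched actin assembly, had 3.00 and 0.879 FPKM, and Aif1, the microglia and macrophage marker Iba1, had 4.46 and 1.58 FPKM, or 2.83-fold. The exception was Arhgdib, an inhibitor of small GTPases, with 61.0 FPKM in Tet2 KO against 32.7 in WT, a log2 ratio of 0.90 (counting error 0.041).

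The adhesion G protein-coupled receptors Adgre1 and Adgre5 went in opposite directions. Adgre1 encodes the surface antigen by which mouse macrophages are classically recognised, and spans 57498109 to 57622952 on chromosome 17 of mm9 with 22 exons. It had 3.67 FPKM in Tet2 KO against 0.712 in WT, a log2 ratio of 2.36 (counting error 0.15). Adgre5 encodes CD97, which many cell types carry. Its level was 53.5 FPKM in Tet2 KO against 71.3 in WT, a log2 ratio of -0.41 (counting error 0.023), the lowest of the 40 genes. Adgre5 shares its locus with Ddx39, which had 160 and 154 FPKM; whether fragments of Ddx39 entered its value was not tested.

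Scavenger and lectin receptors showed the widest range. Msr1, the class A scavenger receptor, had 22.1 FPKM in Tet2 KO against 4.78 in WT, a log2 ratio of 2.21 (counting error 0.057). Mrc1, the mannose receptor of resident and alternatively activated macrophages, had 3.84 and 1.40 FPKM, a log2 ratio of 1.46 (counting error 0.092). Marco, a scavenger receptor of alveolar and marginal zone macrophages, was low, with 0.551 FPKM in Tet2 KO against 0.0574 in WT. Its log2 ratio of 3.26, the highest of the 40 genes, rested on about 49 and 5 fragments and had a counting error of 0.67. Cd163, the haemoglobin scavenger receptor of resident macrophages, was near 0 in both groups, with 0.0169 FPKM in Tet2 KO against 0.0206 in WT, about 3 and 4 fragments. Lgals3 encodes galectin-3, a lectin of macrophages that fibroblasts and other cells also make. It had 214 FPKM in Tet2 KO against 201 in WT, a log2 ratio of 0.09 (counting error 0.018). The groups differed by 12.97 FPKM in Lgals3 and by 12.1 FPKM in Lcp1, differences of like size on unlike levels.

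Receptors for chemoattractants and lipid mediators were low but higher in Tet2 KO for all 5 genes, each at least 2-fold. That ratio was reached by 7.1% of all genes with both values above 0. All 5 were under 1 FPKM in WT, where Fpr1 and Gpr84 rested on about 8 and 12 fragments. Fpr2, a receptor for formyl peptides and serum amyloid A, had 3.45 FPKM in Tet2 KO against 0.583 in WT, a log2 ratio of 2.56 (counting error 0.29). Its neighbour on chromosome 17, Fpr1, had 0.621 and 0.139 FPKM. Ptafr, the receptor for platelet activating factor, had 1.64 and 0.425 FPKM, and Gpr84, a receptor for medium-chain fatty acids, had 0.755 and 0.178 FPKM. These 3 genes lay between 3.86-fold and 4.48-fold. C5ar1, the receptor for the complement fragment C5a, had 1.45 and 0.547 FPKM, a log2 ratio of 1.41 (counting error 0.21).

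Of the genes of endotoxin response and costimulation, all 4 were at least 2-fold higher. Over all genes with both values above 0 the share was 7.1%. Ly86 and Cd86 were under 1 FPKM in WT and rested there on about 14 and 19 fragments. Acod1, the enzyme that makes itaconate in activated macrophages, had 5.65 FPKM in Tet2 KO against 1.496 in WT, a log2 ratio of 1.92 (counting error 0.12). Ly86, the partner of a Toll-like receptor homologue, had 1.22 and 0.303 FPKM. Cd86, the costimulatory ligand of CD28, had 0.762 and 0.163 FPKM. Cd14, the endotoxin coreceptor, on chromosome 18 from 36884718 to 36886469, was lower in ratio, with 3.80 and 1.61 FPKM, a log2 ratio of 1.24 (counting error 0.16).

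A list of 8 genes of the set that are known to be expressed outside leukocytes too (Lgals3, Adgre5, Cd14, Mrc1, Msr1, Cd52, Ptafr and Fpr2) was divided, with 6 of 8 at least 2-fold higher and a median log2 ratio of 1.70. Lyz1, which gut cells express, was not on that list and is counted with the others. Of the other 32 genes 28 were at least 2-fold higher, with a median of 1.97. In comparison, 7.1% of all genes with both values above 0 were at least 2-fold higher. The exceptions among the 32 were Lyz1 and Cd163, which were near 0 in both groups, and Evi2a and Arhgdib. Without the 8 genes the standard deviation of the log2 ratios at a mean FPKM of at least 1 was 0.52, compared with 0.70 with them. This removal was chosen after seeing the data. The 8 genes hold the lowest log2 ratios at that level, Adgre5 (-0.41) and Lgals3 (0.09), and the highest, Fpr2 (2.56). The narrower spread thus follows by construction.

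To see which macrophage markers outside the set were present, a list of 15 further core genes was described. All 15 were detected, defined as at least 1 FPKM in a group, 14 were higher in Tet2 KO, and 11 were at least 2-fold higher. Of all genes that averaged 1 FPKM or more, 2.92% were at least 2-fold higher. The median log2 ratio of the 15 was 1.99. The most abundant were Ctss, the protease cathepsin S, with 73.2 FPKM in Tet2 KO against 18.4 in WT, Cd74, the invariant chain of MHC class II, with 29.8 and 9.48 FPKM, and Sirpa, an inhibitory receptor of phagocytes that other cells also carry, with 25.5 and 20.4 FPKM. In these marker lists, genes named beyond the 3 most abundant and the defining genes near 0 were chosen after their values were seen. Csf1r, the receptor for the main macrophage growth factors, had 8.25 and 2.06 FPKM, and Spi1, which encodes the myeloid transcription factor PU.1, had 6.71 and 1.57 FPKM. Fcgr1, the high-affinity Fc receptor for IgG, had 4.82 and 1.04 FPKM. Mertk, the receptor for apoptotic cells, had 1.59 and 0.940 FPKM.

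Markers of muscle-resident macrophages were only partly present. Of 14 genes 7 were detected, and 6 were under 0.1 FPKM in both groups: Lyve1, Timd4, Cd163, Cx3cr1, Vsig4 and Cbr2. Folr2 had 0.754 FPKM in Tet2 KO against 0.501 in WT. The list shares Mrc1 and Cd163 with the 40 genes. The complement C1q chains were among its most abundant genes. C1qa, C1qb and C1qc had 7.85, 17.8 and 17.9 FPKM in Tet2 KO and 2.94, 6.05 and 5.28 FPKM in WT, with log2 ratios of 1.42, 1.56 and 1.76. Gas6, a ligand of Mertk that many cell types make, had 38.1 and 35.5 FPKM. The 7 genes that averaged 1 FPKM or more had a median log2 ratio of 1.42, which was 0.59 with the low genes included.

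Of 14 markers of classically activated macrophages 10 were detected, and their ratios were uneven; Acod1, Fpr2, Cd86 and Gpr84 of this list are also among the 40 genes. Ptgs2, the inducible cyclooxygenase, had 55.1 FPKM in Tet2 KO against 18.7 in WT, a log2 ratio of 1.56, and Acod1 is given above. Tnf had 2.29 and 0.699 FPKM, and Cd38, an ectoenzyme, had 2.18 and 0.584 FPKM. In contrast Nos2, the inducible nitric oxide synthase, had 2.41 and 1.64 FPKM, Cxcl10 had 48.7 and 43.9 FPKM, and Il1b had 2.08 FPKM in Tet2 KO against 2.81 in WT. Il12b was near 0, with about 1 fragment in each group. The genes that averaged 1 FPKM or more had log2 ratios from -0.44 for Il1b to 2.56 for Fpr2, with a median of 1.43. Tnf, Cd38 and Fpr2 were under 1 FPKM in WT, and with at least 1 FPKM required in both groups the median was 0.55.

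Of 12 markers of alternatively activated macrophages 7 were detected. Chil3, a chitinase-like protein, had 110 FPKM in Tet2 KO against 40.3 in WT, and its paralog Chil4 was listed at 0 in both groups. Arg1, which encodes arginase, had 23.1 and 4.05 FPKM, a log2 ratio of 2.51 (counting error 0.096). Il4ra, the receptor for interleukin-4 on many cell types, had 45.0 and 40.7 FPKM. Ccl24, a chemokine of eosinophils, had 13.02 and 2.88 FPKM. Retnla was listed at 0 in both groups, Clec10a had 0.331 and 0.279 FPKM, and Ccl17 and Ccl22 were under 1 FPKM in both. Mgl2, a lectin of the same cells, was lower in Tet2 KO, with 5.47 and 8.02 FPKM. Of neither activation state were all genes detected, and those of this list that averaged 1 FPKM or more had a median log2 ratio of 1.45, which was 0.25 with the low genes included.

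Monocyte markers were more complete. Of 12 genes 10 were detected, and 7 of the 10 genes that averaged 1 FPKM or more were at least 2-fold higher. That ratio was reached by 2.92% of all genes at that level. The median log2 ratio of the 10 was 1.95. Of the 7 genes at least 2-fold higher, F13a1 and Ms4a4c were under 1 FPKM in WT. Among genes of the list that averaged 5 FPKM or more the median was 1.15. Plac8 had 110 FPKM in Tet2 KO against 29.1 in WT. Ly6c2, the antigen of inflammatory monocytes, had 77.7 and 19.6 FPKM, and Ccr2, the chemokine receptor by which they leave the marrow, had 8.01 and 1.78 FPKM. S100a4, the most abundant gene of the list and one that many cells express, had 554 and 667 FPKM, a log2 ratio of -0.27, and Vcan and Nr4a1 had log2 ratios of 0.38 and -0.12. Cd300e was near 0.

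Neutrophil genes were higher in Tet2 KO beside the macrophage genes. All 14 were measured, 12 had a mean FPKM of at least 1, and these 12 were all at least 2-fold higher. That ratio was reached by 2.92% of all genes at that level. The 12 genes had a median log2 ratio of 2.03 and a standard deviation of 0.28. Among them, Retnlg reached that mean through its Tet2 KO value alone and so had to differ. With at least 1 FPKM required in both groups the median was 2.09. The summed level of the 14 was 2063 FPKM in Tet2 KO against 580 in WT, above that of the 40 macrophage and myeloid genes at 884 and 471 FPKM. S100a8 had 941 and 285 FPKM, and S100a9 had 781 and 213 FPKM; Ngp, a granule protein, had 94.8 and 21.5 FPKM. Genes of immature granulocytes were among them. Prtn3 had 40.8 and 10.4 FPKM, Elane 16.6 and 3.84 FPKM and Mpo 14.0 and 3.65 FPKM. Ltf had the highest ratio of the 12, with 71.0 and 11.7 FPKM, or 6.07-fold. Camp had 63.9 and 20.4 FPKM and Lcn2 16.9 and 3.91 FPKM. Mmp8 had 13.6 and 3.20 FPKM and Ly6g 5.86 and 1.30 FPKM. The receptors Cxcr2 and Csf3r stayed under 1 FPKM in both groups, and were 2.67-fold and 2.49-fold higher in Tet2 KO. The maturity of the cells was not tested. Neutrophils and monocytes share many of the 40 genes; the part of each cell type in the values was not tested.

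Of 12 genes of T and natural killer cells 9 were under 0.1 FPKM in both groups, including Cd3e, Cd3d and Cd3g, and only Lck reached 1 FPKM, with 1.09 FPKM in Tet2 KO against 0.880 in WT. Ms4a1 and Pax5 of B cells were under 0.1 FPKM, and Blk was the 1 gene of that list to be detected, with 0.800 and 1.74 FPKM. No mast cell gene reached 1 FPKM. Hbb-b1 and Hba-a1 of red cells were under 0.1 FPKM. Pf4, a platelet chemokine that macrophages also express, had 27.6 FPKM in Tet2 KO against 6.18 in WT, and Ppbp, a further platelet chemokine, had 1.22 and 0.318 FPKM, while the platelet genes Itga2b and Gp9 were under 1 FPKM. Of 10 dendritic cell genes only Zbtb46 and H2-Ab1 were detected, and Flt3, Clec9a and Siglech were near 0. H2-Ab1, an MHC class II chain, had 5.44 and 0.976 FPKM. Osteoclast markers were low, with Mmp9 at 1.64 and 0.521 FPKM, Ctsk at 1.51 and 0.852 FPKM and Calcr and Oscar under 0.1 FPKM. Endothelial genes summed to 4.53 FPKM in Tet2 KO against 5.76 in WT. Fibroblast genes that averaged 1 FPKM or more had a median log2 ratio of 0.43, the largest being 1.16 for Dcn.

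**Figure D3:**
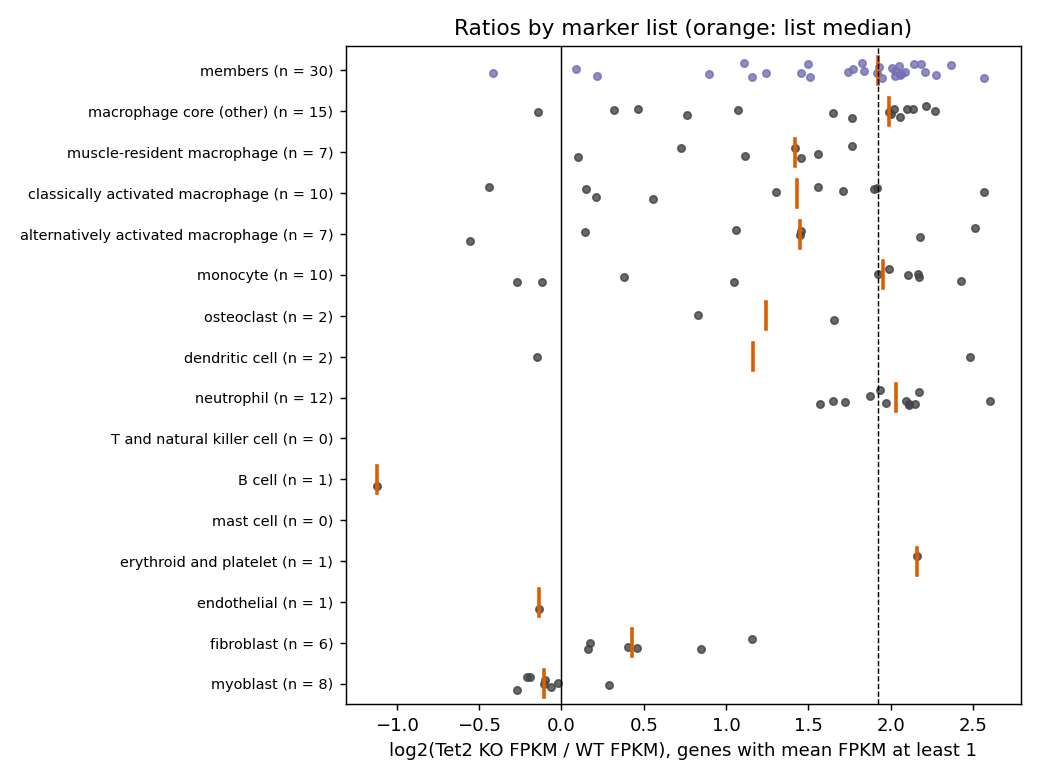
Log2 ratio of Tet2 KO over WT FPKM (x axis) for the genes of each marker list with a mean FPKM of at least 1; each point is a gene, orange bars are list medians, and the dashed line marks 1.92. The medians of the macrophage core, monocyte and neutrophil lists (1.99, 1.95 and 2.03) lie at the line, those of the resident, classically and alternatively activated lists (1.42, 1.43 and 1.45) lie to its left, and that of the myoblast list lies at -0.10.

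The start regions of the genes were then searched for the letters of binding motifs known from myeloid genes. RefSeq windows of GRCm38.p6, from 250 bases before to 50 bases after the start of transcription, were at hand for 30 of the 40 genes; those without one were Tyrobp, Lst1, Cd52, Evi2a, Nckap1l, Adgre1, Adgre5, Msr1, Cd14 and Cd86. GAGGAAGT, a sequence bound by PU.1, was found on either strand in the windows of 3 genes, Cd53, Pld4 and Cd37, that is 3 of 30, and in those of 3.69% of all 27025 genes. The C/EBP letters TTGCGCAA or TTGCACAA were found in 1 gene, Cytip, against 1.34% of all genes. The AP-1 letters TGACTCA or TGAGTCA, which are the reverse complement of each other, were found in 1 gene, Cd84, against 5.95%. TATAAA was found in 6 genes (Acod1, Arhgdib, Fpr1, Fpr2, Laptm5 and Ptprc), or 20.0%, against 15.7% of all genes. A match is a description of letters and not a bound site. The 3 genes with GAGGAAGT are shown from 100 bases before to 30 bases after their start, along the strand of the gene, with the motif or its reverse complement in capitals.
Cd53: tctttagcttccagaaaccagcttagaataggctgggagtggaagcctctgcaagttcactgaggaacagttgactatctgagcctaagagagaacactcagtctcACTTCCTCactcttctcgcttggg
Pld4: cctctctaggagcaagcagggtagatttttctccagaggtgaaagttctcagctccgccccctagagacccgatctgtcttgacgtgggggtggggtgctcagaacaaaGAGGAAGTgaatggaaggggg
Cd37: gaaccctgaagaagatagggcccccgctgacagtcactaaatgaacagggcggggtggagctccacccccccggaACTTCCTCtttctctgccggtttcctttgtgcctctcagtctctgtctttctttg
These lie at chr3:106790120-106790249 on the minus strand for Cd53, at chr12:112760555-112760684 on the plus strand for Pld4 and at chr7:45238810-45238939 on the minus strand for Cd37. The motif covers transcribed bases 7 to 14 in Cd53 and 10 to 17 in Pld4, and in Cd37 it covers bases 25 to 18 before the start. The 3 genes had 2.84-fold, 4.15-fold and 2.19-fold higher values in Tet2 KO.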

How the data were processed

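RNA of 4 libraries was sequenced. Per the study's methods and the labels, the authors trimmed reads, aligned read pairs to mm9 with TopHat2 2.0.13 and ran Cuffdiff 2.2.1; the gene annotation is not given in the sources used here. The deposited FPKM values are 1 per gene and group, and how libraries were combined was not stated. The table also holds the authors' own log2 ratios, test statistics, p-values and q-values, which were not used, so no test was made. The TruSeq kit used does not mark strand, so reads of overlapping genes on opposite strands cannot be told apart.

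Ratios were taken without a pseudocount (0), and lists were described over genes that averaged 1 FPKM or more. The members and lists were chosen with earlier results of these data known. All 40 members were named, and of each marker list up to 3 detected genes of highest Tet2 KO level and defining genes near 0, with exceptions marked in the text; some list genes are not reported here. Older symbols gave 3 members (Adgre1, Adgre5 and Acod1) an entry in GENCODE vM1, an mm9 annotation; the table counts starts from 0, and 1 was added. Transcript lengths behind the counting errors came from it. Summaries were tested on simulated data. Matplotlib 3.10.9, scipy 1.17.1, pandas 2.3.3 and numpy 2.4.6 ran under Python 3.11.15.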

Additional observations from a re-analysis of the deposited data

How the results depend on the processing

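No paired analysis was possible because each gene has a single pooled value in a group, which also meant that no library could be left out. The median log2 ratio of the members, 1.92, stayed between 1.74 and 1.94 under a pseudocount of 0.1, no filter, a filter at a mean of 5 FPKM, TPM, centring on all genes, at least 1 FPKM in both groups and removal of the 8 genes known outside leukocytes; the last 2 settings were chosen after seeing the data. A pseudocount of 1 gave 1.32, since it pulls low values together, and took the monocyte list to 1.31. It left 22 of the 30 members at least 2-fold higher, compared with 26 without it. With the filter at 5 FPKM, 13 members were left, of which 9 were at least 2-fold higher and 8 lay within 0.5 of their median, and the monocyte list had a median of 1.15. With no filter the resident list fell to 0.59 and the alternatively activated list to 0.25, as genes near 0 entered. With at least 1 FPKM in both groups the classically activated list had a median of 0.55. Lists with few genes turned sign: the dendritic cell list went from 1.17 to -0.0060 with no filter and to -0.15 with at least 1 FPKM in both groups, and the B cell list from -1.12 to 0.24 with no filter. A single ratio is called moved if it changed by more than 1.5-fold. Of the 30 single members with a mean of 1 FPKM or more, 7 moved and none reversed under a pseudocount of 1. Under a pseudocount of 0.1 none moved or reversed. The other settings could not move a single gene. TPM and centring shift all log2 ratios by the same small amount, and a changed filter leaves each ratio as it is. With 1 pooled value per group, the spread between animals and cultures is unknown, which limits every ratio; counting limits those of Lyz1, Cd163 and Marco most.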
